A study of Homo sapiens with 15 samples.

Results

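Ceramide kinase and 9 other sphingolipid enzymes were followed in A549 xenograft tumours as 10 human genes, CERK, SPHK1, SPHK2, SGPL1, SGPP1, ASAH1, UGCG, CERS2, CERS6 and SGMS1. All 10 were found by name among the 60649 human genes of the deposited count table. The list was selected on the measured levels of these same libraries (CPM, a gene's counts scaled by the human total of its library) in all 3 groups, whose differences were known, and no threshold is recorded. Their p-values from the fit across all genes are therefore given as a description and support nothing by themselves. RNA came from 15 subcutaneous tumours grown from transplanted A549 cells, a single established human lung adenocarcinoma line. The hosts were nude mice, a strain without a working thymus. In the stress group (n = 5) mice were restrained 7 days before the cells were transplanted. In the post-stress group (n = 5) they were restrained 12 days after it, and in the no-stress group (n = 5) they were not restrained. The labels do not say whether these days are a duration or a starting point and give no age. The protocol gives 5 mice per group and the labels name each library as a xenograft of its own.

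Human counts per library ranged from 12877165 to 15892705, and mouse genes took between 12.4% and 30.2% of all counts. No-stress replicate 1 had the highest mouse share and no-stress replicate 5 the next. The label of the cells was borne out by all 10 lung epithelial and A549 genes checked, such as KRT8 and AKR1B10, with at least 93 counts of each in every library. Their summed level was 17170 to 20070 CPM in stress, 18030 to 21570 CPM in post-stress and 17620 to 23020 CPM in no-stress tumours. Of these, ALDH3A1 fell in stress against no stress (adjusted p = 0.0440, edgeR's quasi-likelihood test). Of 8 leukocyte markers PTPRC and CD3E had at most 2 counts in any library, while ITGAM had 18 to 80 and CD14 11 to 58 counts and LYZ up to 39. The list summed to 3.21 to 6.42 CPM in stress, 2.94 to 8.47 CPM in post-stress and 3.79 to 8.29 CPM in no-stress tumours. The 6 fibroblast markers summed to 104.7 to 167 CPM, 62.3 to 217 CPM and 97.3 to 193 CPM in the same order of groups. Most of this sum was COL1A1, with a mean of 109 CPM. DCN, LUM and PDGFRB averaged 15.3, 5.56 and 2.66 CPM, and COL1A2 and COL3A1 had at most 3 and 6 counts in any library. The 5 endothelial markers summed to 9.67 to 16.3, 8.13 to 25.1 and 12.6 to 20.4 CPM. Most of that was PECAM1, with a mean of 14.4 CPM, while VWF, CDH5, KDR and TEK had at most 4, 7, 1 and 11 counts. The ranges of the sums overlapped between all groups.

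Ceramide is the hub of sphingolipid metabolism. Ceramide synthases join a sphingoid base to a fatty acid, and the ceramide so made can be phosphorylated, glycosylated, turned into sphingomyelin or cut by ceramidases to sphingosine. Sphingosine kinases turn sphingosine into sphingosine 1-phosphate, a signalling lipid that is dephosphorylated again by phosphatases or cleaved for good by a lyase. In cancer cells ceramide is commonly linked to growth arrest and cell death, sphingosine 1-phosphate to survival and migration, and glucosylceramide synthesis to drug resistance.

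Promoter sequences were at hand for 6 of the 10 genes (RefSeq, GRCh38.p14, from 250 bases before to 50 bases after a transcription start). UGCG is the only one of these 6 whose adjusted p was under 0.05 in any comparison, and its promoter (chr9:111896564-111896863, plus strand) is shown for that reason, 5′ to 3′.
UGCG promoter: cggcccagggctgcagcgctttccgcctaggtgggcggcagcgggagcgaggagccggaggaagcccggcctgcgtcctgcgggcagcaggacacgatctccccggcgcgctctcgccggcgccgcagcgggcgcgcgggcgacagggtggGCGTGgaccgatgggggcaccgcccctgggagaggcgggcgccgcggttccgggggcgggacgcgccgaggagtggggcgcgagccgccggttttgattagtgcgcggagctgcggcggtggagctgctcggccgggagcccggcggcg
The capitals mark the only match to the core motif of the hypoxia-inducible factors (ACGTG or GCGTG, either strand), a GCGTG at position −99 from the transcription start. This promoter also held 3 matches to the GC box GGGCGG and none to the E-box CACGTG, a motif that can overlap ACGTG. Of 35116 promoters of the same length, 48.4% held the hypoxia-inducible factor core in either form, 45.0% the GC box and 7.26% the E-box. Among the other members, the core was found in the promoters of CERS6 and SGPL1 and in 1 start region each of SPHK1 and SPHK2, and not in that of SGMS1. Such matches describe the letters only.

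The members differed widely in level. Per kilobase of exon (exon union of the GENCODE 29 basic transcripts) the medians over 15 tumours were 38.9 CPM per kb for CERS2, 18.9 for SGPL1, 16.96 for ASAH1, 12.7 for CERK, 11.5 for UGCG, 10.8 for SGMS1, 3.91 for SPHK1, 3.40 for SPHK2 and 1.97 for CERS6. CERS2 lay above every other member in every tumour, with 35.4 to 49.0 CPM per kb. SGPL1 (14.96 to 22.7) and ASAH1 (13.9 to 19.8) were not separated by their spread over tumours. Neither were CERK (6.94 to 14.5), UGCG (5.67 to 23.4) and SGMS1 (8.80 to 13.2), nor SPHK1 (2.32 to 6.26) and SPHK2 (2.99 to 3.86). With the exons of all annotated transcripts in place of the basic set, ASAH1 dropped to a median of 5.07 CPM per kb, below CERK, UGCG and SGMS1, so that its place depends on the annotation. SGPP1 had 2 counts in all 15 libraries together.

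**Figure D1:**
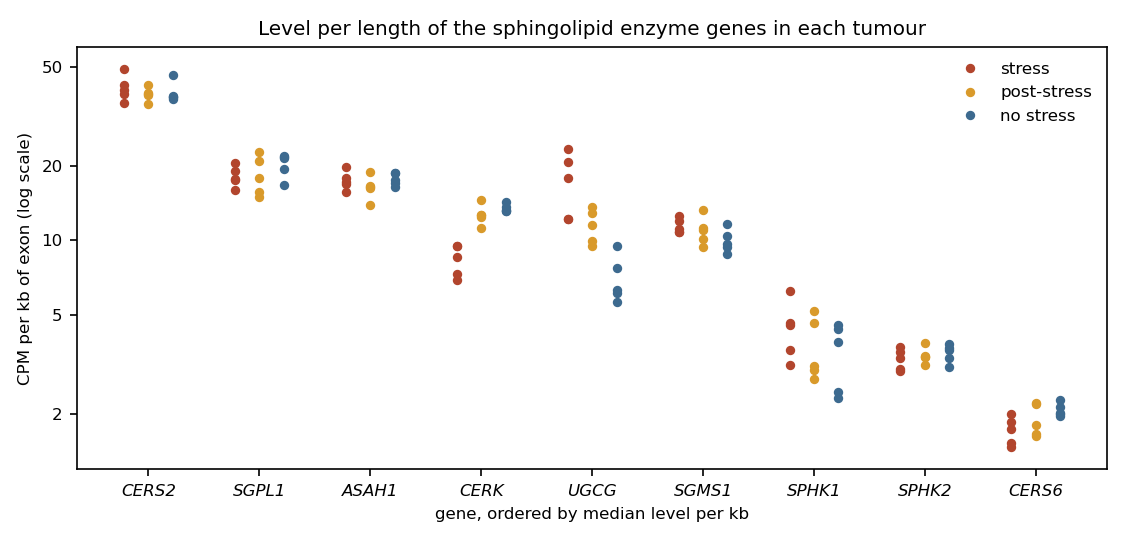
CPM per kilobase of exon (log scale) of the 9 measurable sphingolipid enzyme genes, with 1 point per tumour and groups side by side (stress left, post-stress middle, no stress right). CERS2 is highest in every tumour, CERS6 has the lowest median, and UGCG and CERK change places between stress and no-stress tumours.

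Ceramide kinase and ceramide glucosyltransferase both act on ceramide. CERK (ENSG00000100422.14, chr22:46684411-46738261, minus strand, hg38 with GENCODE 29) encodes the kinase that makes ceramide 1-phosphate, a lipid that activates cytosolic phospholipase A2. Its level was 42.1, 32.6, 38.0, 42.4 and 30.9 CPM in the 5 stress tumours, 56.4, 64.5, 56.5, 55.3 and 50.1 CPM in the post-stress tumours, and 58.6, 59.1, 60.6, 63.5 and 58.5 CPM in the no-stress tumours. Every stress tumour lay below every post-stress and every no-stress tumour, and the post-stress and no-stress ranges overlapped. The mean was 37.2 ± 5.31 CPM in stress, 56.6 ± 5.17 CPM in post-stress and 60.1 ± 2.11 CPM in no-stress tumours (SD, n = 5 each). CERK fell to 0.619-fold in stress against no stress (log2 fold change −0.69, SE 0.09, adjusted p = 7.95e-04), which made it the 11th of 15435 tested genes by p-value. In stress against post-stress it fell to 0.658-fold (log2 fold change −0.60, SE 0.09, adjusted p = 0.0242), the 2nd by p-value. In post-stress against no stress the log2 fold change was −0.09 (SE 0.09, 95% interval −0.26 to 0.09, adjusted p = 0.7097). In whole-tumour RNA, fewer cells with the transcript and less transcript per cell cannot be told apart. The fall against no stress was called in all 15 fits that left out 1 library (log2 fold change −0.74 to −0.62). The call against post-stress was lost in 5 of those 15 fits, without stress replicates 2, 3 or 5 or post-stress replicates 2 or 3 (adjusted p up to 0.0978), and in 3 other settings, while the log2 fold change stayed between −0.66 and −0.55. With the mouse share of counts as a covariate it was −0.71 against no stress (adjusted p = 8.56e-04) and −0.57 against post-stress (adjusted p = 0.0841). Without no-stress replicates 1 and 5 the 2 values were −0.72 (adjusted p = 0.00545) and −0.61 (adjusted p = 0.0369).

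UGCG (ENSG00000148154.10, chr9:111896766-111935369, plus strand) encodes ceramide glucosyltransferase, which makes glucosylceramide, the first step towards most glycosphingolipids. Its level was 93.7, 82.8, 71.4, 48.6 and 48.9 CPM in the stress tumours, 54.7, 46.1, 51.6, 39.9 and 37.9 CPM in the post-stress tumours, and 25.3, 31.1, 22.7, 24.5 and 37.9 CPM in the no-stress tumours. All stress tumours lay above all no-stress tumours. Post-stress replicate 5 lay just under no-stress replicate 5, the highest of its group, and stress replicates 4 and 5 lay within the post-stress range. UGCG averaged 69.1 ± 20.2 CPM in stress, 46.0 ± 7.26 CPM in post-stress and 28.3 ± 6.23 CPM in no-stress tumours (SD, n = 5 each). It rose 2.44-fold in stress against no stress (log2 fold change 1.29, SE 0.20, adjusted p = 0.00245), a call that held in all 15 fits without 1 library (log2 fold change 1.16 to 1.42) and in all 9 other settings. In post-stress against no stress the log2 fold change was 0.70 (SE 0.19, 95% interval 0.32 to 1.084) and did not pass (adjusted p = 0.108), although it did with DESeq2's Wald test (adjusted p = 0.0125). In stress against post-stress the value was 0.59 (SE 0.19, adjusted p = 0.239). The fold changes against no stress share the same 5 no-stress tumours. With the mouse share as a covariate UGCG stood at 1.26 in stress against no stress (adjusted p = 0.00499), and without no-stress replicates 1 and 5 at 1.40 (adjusted p = 0.00941).

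**Figure D2:**
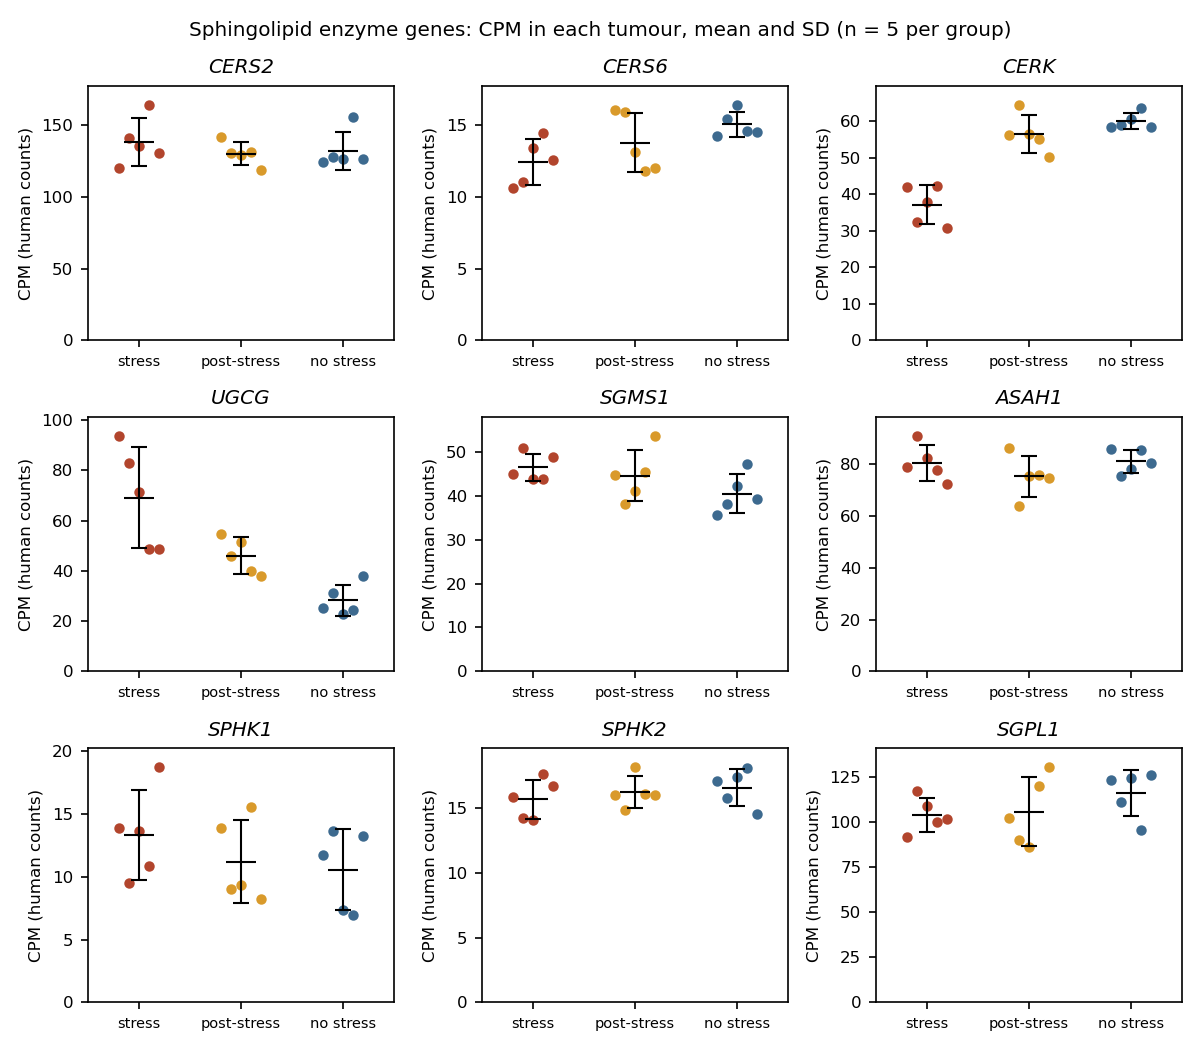
CPM of the 9 measurable sphingolipid enzyme genes in each tumour (points), with mean and SD (bars, n = 5) for stress, post-stress and no-stress groups from left to right in each panel. CERK is low in all 5 stress tumours, with 30.9 to 42.4 CPM. UGCG has its highest mean in stress, where its range overlaps that of post-stress but not that of no stress. The other 7 genes overlap between all groups.

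SGMS1 (ENSG00000198964.14, chr10:50305586-50625163, minus strand), a sphingomyelin synthase of the Golgi, joins ceramide to a phosphocholine group. Its range was 43.8 to 50.8 CPM in stress, 38.1 to 53.6 CPM in post-stress and 35.7 to 47.3 CPM in no-stress tumours. The groups overlapped, and no difference passed (log2 fold change 0.20, SE 0.10, adjusted p = 0.198 in stress against no stress). With the ceramidase ASAH1, 4 members act on ceramide, of which 1 fell (CERK), 1 rose (UGCG) and 2 did not pass in stress against no stress, where 10.5% of all tested human genes were called (5.23% higher, 5.22% lower).

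The ratio of 2 counts within a library does not depend on library scaling, and it was computed for pairs chosen after their values were seen. UGCG had 2.23, 2.54, 1.88, 1.15 and 1.58 counts per CERK count in the stress tumours, 0.971, 0.714, 0.913, 0.722 and 0.755 in the post-stress tumours, and 0.432, 0.527, 0.375, 0.386 and 0.648 in the no-stress tumours. The 3 groups did not overlap, with means of 1.88 ± 0.545 in stress, 0.815 ± 0.119 in post-stress and 0.474 ± 0.115 in no-stress tumours (SD, n = 5 each). Between stress and no stress this follows from the 2 genes, each of which was already without overlap there. The share of other gene pairs without overlap was not computed. Within the stress group, replicate 2, with the highest ratio, had much UGCG, 82.8 CPM, and little CERK, 32.6 CPM, and replicate 4, with the lowest ratio, had the least UGCG, 48.6 CPM, and the most CERK, 42.4 CPM. Replicate 5 had the lowest CERK of the group, 30.9 CPM, and the second lowest UGCG, 48.9 CPM, while replicate 1 had the most UGCG, 93.7 CPM, with 42.1 CPM of CERK. SGMS1 had 1.28 ± 0.269 counts per CERK count in stress, 0.800 ± 0.175 in post-stress and 0.673 ± 0.0513 in no-stress tumours, and post-stress replicate 5 (1.07) lay within the stress range.

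**Figure D3:**
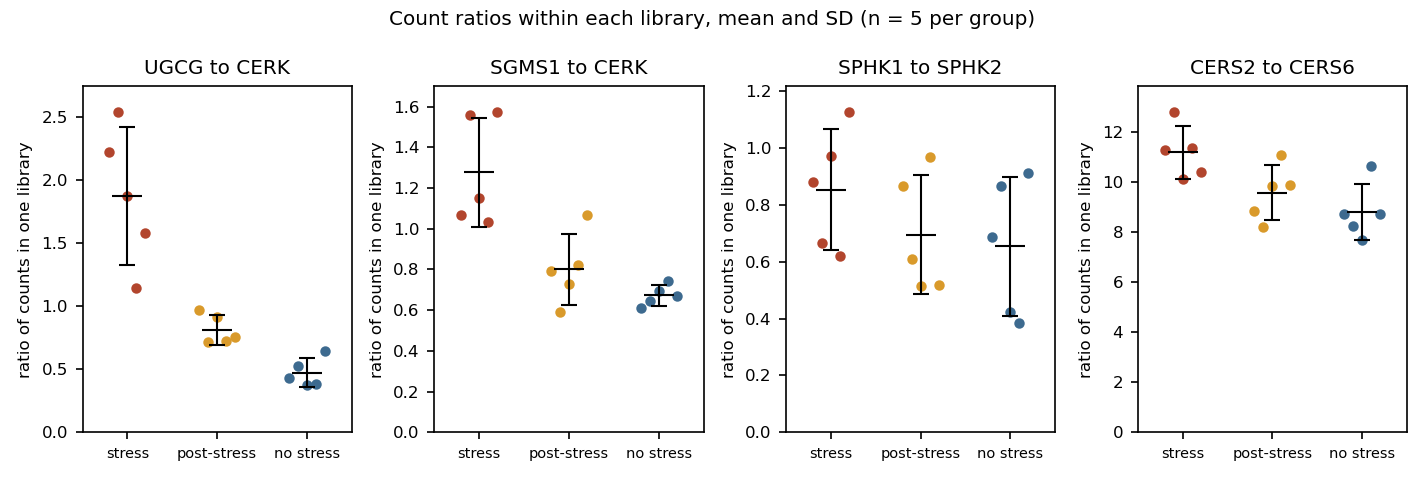
Ratio of the counts of 2 genes in the same library for 4 gene pairs, with 1 point per tumour and mean and SD as bars (n = 5 per group; stress, post-stress and no stress from left to right). The UGCG to CERK ratio is 1.15 to 2.54 in stress, 0.714 to 0.971 in post-stress and 0.375 to 0.648 in no-stress tumours, while the SPHK1 to SPHK2 ratio overlaps between all groups.

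The ceramide synthases CERS2 and CERS6 differ in the fatty acids they attach, very long chains for CERS2 and mainly palmitoyl chains for CERS6. CERS2 (ENSG00000143418.20, chr1:150960583-150975004, minus strand) had 119.8 to 164 CPM in stress, 118.6 to 142 CPM in post-stress and 124.6 to 156 CPM in no-stress tumours. Its log2 fold change in stress against no stress was 0.07 (SE 0.09, 95% interval −0.11 to 0.24, adjusted p = 0.681). CERS6 (ENSG00000172292.15, chr2:168455862-168775137, plus strand) had 10.6, 11.02, 13.4, 14.5 and 12.6 CPM in stress tumours, 16.0, 15.9, 13.1, 11.8 and 12.0 CPM in post-stress tumours and 14.3, 15.4, 16.4, 14.6 and 14.5 CPM in no-stress tumours. In 4 of 5 stress tumours it lay below all no-stress tumours, and the difference did not pass (log2 fold change −0.28, SE 0.12, adjusted p = 0.140). CERS2 had 11.2 ± 1.06 counts per CERS6 count in stress, 9.58 ± 1.10 in post-stress and 8.81 ± 1.11 in no-stress tumours (SD, n = 5 each), with overlap between all groups. The strand setting of the counting is not given, 41.4% of the CERS6 exon bases are shared with exons of the antisense gene CERS6-AS1, and 20.4% of those of CERS2 with SETDB1. If strand was not used in the counting, reads of these pairs cannot be told apart, so the levels of CERS6 and CERS2 are uncertain.

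ASAH1 (ENSG00000104763.20, chr8:18055992-18084998, minus strand), the acid ceramidase of lysosomes, had 72.2 to 90.8 CPM in stress, 63.8 to 86.3 CPM in post-stress and 75.3 to 85.8 CPM in no-stress tumours. Its log2 fold change in stress against no stress was −0.01 (SE 0.08, 95% interval −0.17 to 0.15, adjusted p = 0.953). The sign of the value changed in 5 of 24 other settings.

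SPHK1 and SPHK2 encode the sphingosine kinases, SPHK1 mostly in the cytosol and SPHK2 also in the nucleus. SPHK1 (ENSG00000176170.14, chr17:76376584-76387860, plus strand) varied widely within groups, with 13.9, 9.48, 13.7, 10.9 and 18.8 CPM in stress tumours, 13.9, 9.03, 9.33, 15.6 and 8.27 CPM in post-stress tumours and 11.7, 13.6, 7.37, 6.95 and 13.2 CPM in no-stress tumours. The groups overlapped, and the log2 fold change in stress against no stress was 0.34 (SE 0.24, 95% interval −0.13 to 0.80, adjusted p = 0.397). Its coefficient of variation within a group was 26.7% in stress, 29.3% in post-stress and 30.3% in no-stress tumours, which limits the differences that could be detected. SPHK2 (ENSG00000063176.16, chr19:48619291-48630717, plus strand) varied less, with 14.1 to 17.6 CPM in stress, 14.9 to 18.2 CPM in post-stress and 14.5 to 18.1 CPM in no-stress tumours (log2 fold change −0.08, SE 0.10, adjusted p = 0.647 in stress against no stress). Exons of AC022154.1, DBP and RPL18 on the opposite strand share 678, 661 and 246 of the 6009 SPHK2 exon bases.

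SGPL1 and SGPP1 remove sphingosine 1-phosphate. SGPL1 (ENSG00000166224.17, chr10:70815961-70881173, plus strand), the lyase, had 91.6 to 117 CPM in stress, 85.9 to 131 CPM in post-stress and 95.6 to 126 CPM in no-stress tumours (log2 fold change −0.16, SE 0.11, adjusted p = 0.395 in stress against no stress). The ranges overlapped. SGPP1 (ENSG00000126821.8, chr14:63684214-63728039, minus strand), a sphingosine 1-phosphate phosphatase, had no count in 13 of 15 libraries and 1 count each in no-stress replicate 5 and post-stress replicate 5. A count of 0 allows up to 3 counts per library, or 0.186 to 0.229 CPM, for counting error only. A gene without transcripts and one whose reads were not counted cannot be told apart here. SGPP1 was not tested, and no fold change is given.

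Over all 9 tested members, 1 was higher (UGCG) and 1 lower (CERK) in stress against no stress, where 10.5% of all tested human genes were called (5.23% higher, 5.22% lower). DESeq2 called the same 2 members, against 14.1% of all genes, and 3 of the 9 had an unadjusted p under 0.05, against 26.1%. The other 7 had log2 fold changes of at most 0.34 in size, and the smallest adjusted p among them was 0.140. The median log2 fold change was −0.01 for the members, the same as for all genes. UGCG and CERK were also the 2 members whose stress and no-stress tumours did not overlap, against 8.79% of all genes (4.09% higher, 4.70% lower). In post-stress against no stress none of the 9 passed with edgeR, against 0.842% of all genes called (0.596% higher, 0.246% lower). There 1 of the 9, UGCG, had an unadjusted p under 0.05, against 15.2% of all genes, and UGCG was also the 1 member called by DESeq2, against 3.96% of all genes with a DESeq2 adjusted p. No member had groups without overlap in that comparison, against 3.47% of all genes (1.57% higher, 1.89% lower). In stress against post-stress 1 member passed, CERK, which was lower, against 0.0389% of all genes called (0.0259% higher, 0.0130% lower), or 6 of 15435. DESeq2 called 1 member there as well, again CERK, against 1.32% of all genes, and 2 of the 9 had an unadjusted p under 0.05, against 11.1%. CERK was also the 1 member without overlap, against 1.70% of all genes (0.952% higher, 0.752% lower). As the members were chosen with such results known, these shares are set side by side and no more.

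**Figure D4:**
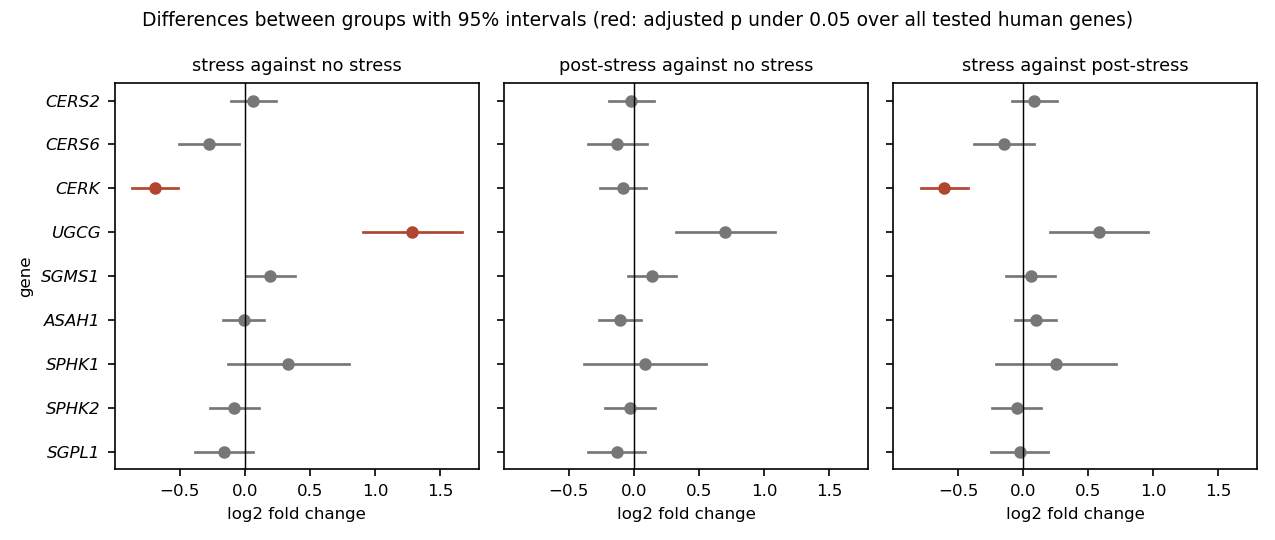
Log2 fold change (points) with 95% intervals (lines) of the 9 tested sphingolipid enzyme genes in 3 comparisons from the edgeR fit; red marks an adjusted p under 0.05. CERK is at −0.69 in stress against no stress and −0.60 in stress against post-stress, UGCG at 1.29 in stress against no stress, and no gene is red in post-stress against no stress.

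The other genes of sphingolipid metabolism were described from a list of 63 genes drawn up by role, of which 58 had enough counts to be tested. In stress against no stress 3 rose, 1 fell and 54 did not pass, or 6.90% called against 10.5% of all genes, and the median log2 fold change was 0.10. In post-stress against no stress 1 rose and 57 did not pass (1.72% called, against 0.842% of all genes). In stress against post-stress none passed with edgeR, against 0.0389% of all genes. There 6 of the 58 had an unadjusted p under 0.05, against 11.1% of all genes, and DESeq2 called 2, against 1.32%. CERS1, CERS3, DEGS2, ACER1 and NEU1 had too few counts.

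Of 9 tested genes of glycosphingolipid synthesis, not all of them on the branch that UGCG opens, 1 rose and 1 fell in stress against no stress. This was 22.2%, against 10.5% of all genes, and the list itself was not tested. A4GALT makes globotriaosylceramide from lactosylceramide. It had 52.8, 47.6, 40.1, 34.8 and 46.4 CPM in stress tumours, 58.1, 52.6, 44.0, 43.7 and 48.9 CPM in post-stress tumours and 31.2, 36.8, 29.5, 26.4 and 36.8 CPM in no-stress tumours. A4GALT rose 1.38-fold in stress (adjusted p = 0.0220) and 1.54-fold in post-stress (adjusted p = 0.0212) against the same no-stress tumours. All post-stress tumours, as for 1.57% of all genes, and 4 of 5 stress tumours lay above all no-stress tumours. The call in stress was lost in 3 of 15 fits without 1 library (stress replicate 1, no-stress replicate 1 or 3; adjusted p up to 0.0675) and in the fit that left out both no-stress replicates 1 and 5 (adjusted p = 0.0576). That in post-stress was lost in 4, without post-stress replicate 1 or 2 or no-stress replicate 1 or 3 (adjusted p up to 0.0682), and in 2 other settings, with the mouse share as a covariate and without no-stress replicates 1 and 5 (adjusted p up to 0.0724). B4GALNT1, which makes the gangliosides GM2 and GD2, had 16.9, 20.8, 27.3, 25.2 and 22.8 CPM in stress tumours, 28.8, 25.1, 23.7, 29.5 and 25.9 CPM in post-stress tumours and 40.1, 29.7, 39.0, 38.9 and 27.7 CPM in no-stress tumours. Every stress tumour lay below every no-stress tumour, as for 4.70% of all genes, though narrowly (27.3 CPM in stress replicate 3, 27.7 CPM in no-stress replicate 5). B4GALNT1 fell to 0.645-fold in stress against no stress (log2 fold change −0.63, SE 0.13, adjusted p = 0.00736) and stood at −0.40 in post-stress (adjusted p = 0.150). Of the 9 tested genes of this role 7 did not pass in stress, among them ST3GAL5, the GM3 synthase, with 17.2 ± 3.27 CPM in stress and 11.5 ± 1.961 CPM in no-stress tumours (adjusted p = 0.148), named after its values were seen. All 5 stress tumours lay above all no-stress tumours in ST3GAL5, as for 4.09% of all genes.

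The other 2 changed genes lie upstream and downstream of ceramide. KDSR, which reduces ketosphinganine in the de novo pathway, had 107.6 ± 12.0 CPM in stress and 83.9 ± 8.03 CPM in no-stress tumours (SD, n = 5 each; log2 fold change 0.36, SE 0.08, adjusted p = 0.0138). Post-stress tumours had 100.8 ± 5.68 CPM of KDSR, and all 5 lay above all no-stress tumours, as for 1.57% of all genes. That difference did not pass (log2 fold change 0.26, SE 0.08, adjusted p = 0.144), nor did stress against post-stress (log2 fold change 0.10, adjusted p = 0.719). In stress, 4 of 5 tumours lay above all no-stress tumours. The other 11 tested genes of de novo synthesis, serine palmitoyltransferase subunits and ORMDL regulators among them, did not pass in stress. ARSA, the lysosomal arylsulfatase that degrades sulfatide, had 57.7 ± 4.07 CPM in stress and 47.6 ± 2.51 CPM in no-stress tumours (log2 fold change 0.28, SE 0.08, adjusted p = 0.0396). The call of ARSA was lost in 8 of the 15 fits without 1 library, those without stress replicates 1, 2, 3 or 5 or no-stress replicates 1, 2, 3 or 4 (adjusted p up to 0.0942), and in 4 of 9 other settings (adjusted p up to 0.101). That of KDSR was lost without no-stress replicates 1 and 5 (adjusted p = 0.0709). The other 10 tested genes of glycosphingolipid breakdown did not pass in stress.

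Sphingomyelin synthesis and breakdown had 6 tested genes and the other ceramidases 3. Another 12 were listed under phosphatases, transporters and receptors of sphingosine 1-phosphate, an aldehyde dehydrogenase among them. Lipid transfer and ceramide 1-phosphate had 5. None of the genes of these 4 roles passed in stress against no stress with edgeR. At an unadjusted p under 0.05 there were 4, 1, 3 and 1 of them, against 26.1% of all genes, and DESeq2 called 0, 0, 2 and 0, against 14.1%. The 5 receptors and PLA2G4A are named after their values were seen. S1PR3 had 229.8 ± 44.95 CPM in stress, 233 ± 54.0 CPM in post-stress and 232 ± 48.6 CPM in no-stress tumours (log2 fold change −0.01 in stress against no stress, SE 0.18, adjusted p = 0.978). S1PR1 had 0.862 ± 0.374 CPM in stress, 0.961 ± 0.789 CPM in post-stress and 2.38 ± 1.04 CPM in no-stress tumours, and did not pass in stress (adjusted p = 0.0543). S1PR2 had 2.88 ± 0.526 CPM in stress, 2.08 ± 0.511 CPM in post-stress and 1.58 ± 0.731 CPM in no-stress tumours (log2 fold change 0.87 in stress against no stress, adjusted p = 0.0720). S1PR4 and S1PR5 averaged 1.02 and 0.645 CPM in stress, and 0.795 and 0.688 CPM in no-stress tumours (adjusted p = 0.548 and 0.948). PLA2G4A, the phospholipase that ceramide 1-phosphate activates, had 55.2 ± 7.39 CPM in stress and 68.2 ± 23.2 CPM in no-stress tumours (adjusted p = 0.340).

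**Figure D5:**
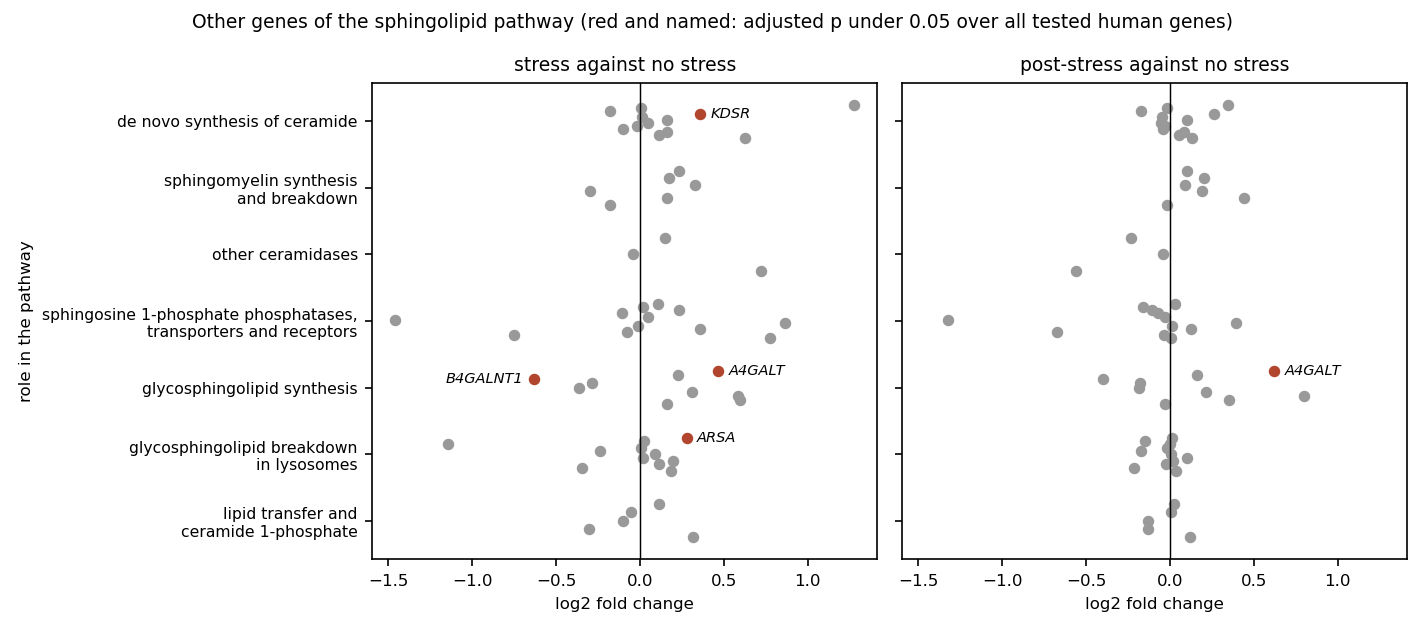
Log2 fold changes of the 58 tested other genes of sphingolipid metabolism, with 1 point per gene, by role in the pathway, in stress against no stress (left) and post-stress against no stress (right), which share the no-stress tumours. Red named points have an adjusted p under 0.05: KDSR, A4GALT, B4GALNT1 and ARSA on the left and A4GALT on the right.

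The genes whose pattern over the 15 tumours was most like that of CERK were taken from 12656 expressed genes by the Pearson r of log2 CPM. They were RABL6 (r = 0.93), MED9 (0.92), FAM53C (0.92), TUFM (0.90) and ZBED4 (0.90). RABL6, for example, averaged 93.6 ± 7.43 CPM in stress, 114 ± 7.05 CPM in post-stress and 119.8 ± 3.13 CPM in no-stress tumours (SD, n = 5 each). With each value taken relative to its group mean, the r of these 5 genes with CERK was 0.47 to 0.80. The most opposite patterns were those of FAM135A (r = −0.91) and ZFP36L1 (r = −0.90), an RNA-binding protein that promotes mRNA decay, with 512 ± 82.0 CPM in stress, 393 ± 71.3 CPM in post-stress and 343 ± 26.2 CPM in no-stress tumours. These genes were picked as the extremes of all r, the tumours share the group differences, and no p is given.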

How the data were processed

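The authors deposited 1 table of raw counts, with 15 libraries and 60649 human and 56941 mouse genes. Per the submitters' processing notes, the authors used Trimmomatic (0.39), HISAT2 (2.2.1), featureCounts (2.0.6) and the builds hg38 and mm10, and name DESeq2 and edgeR. Annotation release, strand setting and the way reads were assigned to human or mouse are not stated in the labels or notes, so conserved mouse reads can lie on human genes.

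Human counts were filtered with filterByExpr, which left 15435 genes with 99.8% of human counts, scaled with TMM and fitted with edgeR's quasi-likelihood test (edgeR 4.0.16, limma 3.58.1, R 4.3.3) with robust dispersions over all 15 libraries. Calls have a Benjamini-Hochberg adjusted p under 0.05 over all tested genes. CPM use the TMM-scaled total of tested human genes. The SE is the log2 fold change divided by the square root of F, and 95% intervals use the normal distribution. The procedure was also run on simulated counts with known changes, whose outcome is not given here and is not used as support. Alternatives included DESeq2's Wald test (1.42.0), other scalings and filters and leaving out libraries.

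Members and lists were chosen with earlier results of these data known. Genes named by rule are all members, up to 3 called genes per role and comparison of the wider list, and the 5 most and 2 least like CERK (mean log2 CPM of at least 1; r on log2 of CPM plus 1). ST3GAL5, PLA2G4A and the receptors S1PR1 to S1PR5 were added after their values were seen. Symbols matched 60463 of the 60649 human identifiers. The p-values set the differences between group means against the spread between these A549 tumours, and cover no other cell line or experiment. Values of some single marker genes are not reported here.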

Additional observations from a re-analysis of the deposited data

Results flagged for a closer look

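Of 42 sets of 5 libraries checked (9 members, the mouse share and 4 count ratios in 3 groups), 1 held a library far from the others. CERS2 stood at 155.5 CPM in no-stress replicate 4, with the other 4 no-stress tumours between 124.6 and 127.5 CPM. The gap took 0.906 of the whole range of the group. The cut-off used to pick out libraries is designed to set apart about 1 of 20 such sets by chance, a rate that was not measured here.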

How the results depend on the processing

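UGCG and CERK were the 2 members called in stress against no stress in all 24 other fits. Of 648 member values in other fits, 624 kept direction and call, 8 lost a call (all CERK in stress against post-stress), 1 gained one (UGCG in post-stress against no stress with DESeq2) and 15 changed sign, none of them called. The cause of the changes below was not tested. DESeq2's Wald test called 7 of 58 genes of the wider list in stress against no stress, against 14.1% of all genes. In post-stress against no stress it called 504 human genes (3.96%), 1 of 9 members and 2 of 58 wider genes. In stress against post-stress it called 203 human genes (1.32%) and 2 of 58 wider genes. With no filter on low counts, stress against post-stress gave 36 of 35033 human genes and 1 of 63 wider genes. With only the groups compared in the fit, 7 of 57 wider genes and 1504 of 14916 human genes were called in stress against no stress. That setting gave 49 human genes in post-stress against no stress, and 1 human gene and 0 members in stress against post-stress. With the mouse share as a covariate, post-stress against no stress gave 38 human genes and 0 wider genes, and stress against post-stress 0 human genes and 0 members. Without no-stress replicates 1 and 5 together, 546 human genes and 1 wider gene were called in stress against no stress, and 32 human genes and 0 wider genes in post-stress against no stress.

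Labels do not say that equal replicate numbers mark shared animals or handling, and the main fit used no pairing. Deviations of same-numbered libraries correlated at −0.24 to 0.15, which cannot show whether the numbers pair the tumours. A replicate block gave 990 human genes in stress against no stress, 57 in post-stress against no stress, and 0 human genes and 0 members in stress against post-stress.

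Leaving out 1 library gave 661 to 1834 human genes and 2 to 7 wider genes in stress against no stress, 37 to 144 and 0 to 2 in post-stress against no stress, and 0 to 189 human genes and 0 to 1 members in stress against post-stress. The fewest human genes in both comparisons with no stress came without no-stress replicate 1. In these fits the uncalled log2 fold changes that changed sign ran from −0.049 to 0.0321 for ASAH1 in stress against no stress and from −0.0918 to 0.0591 for SGPL1 in stress against post-stress. In post-stress against no stress they ran from −0.0429 to 0.0529 for CERS2, −0.0537 to 0.1987 for SPHK1, −0.0741 to 0.0133 for SPHK2 and −0.031 to 0.0676 for ARSA. ARSA was at −0.0368 there with no TMM factor, and ASAH1 at 0.0125 in stress against no stress without no-stress replicates 1 and 5. At this depth SGPP1, with 2 counts in all, could not be tested.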
